A study of Mus musculus with 12 samples.

Results

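Mouse lung taken 14 d after irradiation was compared with unirradiated lung, over all genes. The comparison uses the 3 libraries labelled 14 d and the 3 labelled as not irradiated, which is 6 of the 12 libraries of the series. The other 6 libraries, 3 at 8 d and 3 at 11 d, share the fit and serve only to show where 14 d differs from the earlier times. The irradiated tissue was cut from irradiated areas of the lung, per the series description. The labels read here give no radiation dose, mouse strain, age, sex or hour of sampling, and do not say which region gave the control tissue. The labels number the replicates without saying that each is a separate animal, and the p-values therefore describe only how far these libraries spread, which may be technical.

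The lung holds resident alveolar macrophages, which are kept in the airspace by epithelial signals and clear surfactant, and interstitial macrophages around vessels and airways. After injury, monocytes from the blood enter the tissue, become macrophages and take up dying cells, whose lipids they must digest in lysosomes and export as cholesterol. The alveolar wall itself is made of flat type 1 and surfactant-producing type 2 epithelial cells, general and aerocyte capillary endothelium, and fibroblasts. Radiation is known to injure the endothelium and to be followed by inflammation and, later, fibrosis.

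The unirradiated libraries held 26164354 to 27765751 counts and the 14 d libraries 22615862 to 25524425, and 16484 of 23238 gene symbols passed the filter on low counts. Haemoglobin genes took 0.917 to 1.72% of counts without irradiation and 0.253 to 0.497% at 14 d, and the ribosomal RNA precursor Rn45s took 1.71 to 2.91% and 2.12 to 3.41%. On the first principal component of all 12 libraries, with 54.6% of the variance, the 14 d libraries lay at 32.34 to 49.74 and the unirradiated ones at -79.46 to -70.77. On that component replicate 1 of the 11 d group, at 48.2, fell within the range of the 14 d libraries. The others of that group were at 20.88 and 23.16 there. On the second component this replicate was at 5.29, apart from the 14 d libraries at -35.79 to -11.47. The count of calls against 11 d is also given without this replicate. Replicate 3 of the unirradiated group differed from its group in several low or variable genes, which are given with their 3 values.

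At 14 d, 6408 genes (38.9% of those tested) passed the test against unirradiated lung, of which 3292 (20.0%) were higher and 3116 (18.9%) lower. The test was edgeR's quasi-likelihood test on 3 libraries per group, with Benjamini-Hochberg adjustment over all genes and a threshold of 0.05. Of the tested genes 11.2% rose and 7.87% fell by 2-fold or more (1845 and 1298 genes). In 25.8% of genes all 14 d libraries lay above all unirradiated ones, and in 25.0% all lay below. The large changes were mostly rises: 124 genes rose and 7 fell by at least 4 on the log2 scale. Over all tested genes the median log2 change was 0.006. The shares of 20.0% and 18.9% are the background against which each gene list below is read.

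Pan-macrophage, lysosomal and lipid-associated macrophage genes took up a much larger part of the RNA at 14 d. The 68 genes of these lists together took 1.84, 1.89 and 1.90% of counts in unirradiated replicates 1 to 3 and 7.19, 7.13 and 7.40% at 14 d. The 111 genes of the endothelial lists went the other way, from 2.67, 2.58 and 2.47% to 0.941, 1.09 and 1.08%. The 44 markers of alveolar type 1, type 2 and club cells took 7.20, 8.87 and 8.24% without irradiation and 3.89, 4.72 and 4.08% at 14 d. In whole tissue, fewer cells of a type and less RNA per cell cannot be told apart, and a share of counts falls when other genes take more.

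**Figure D1:**
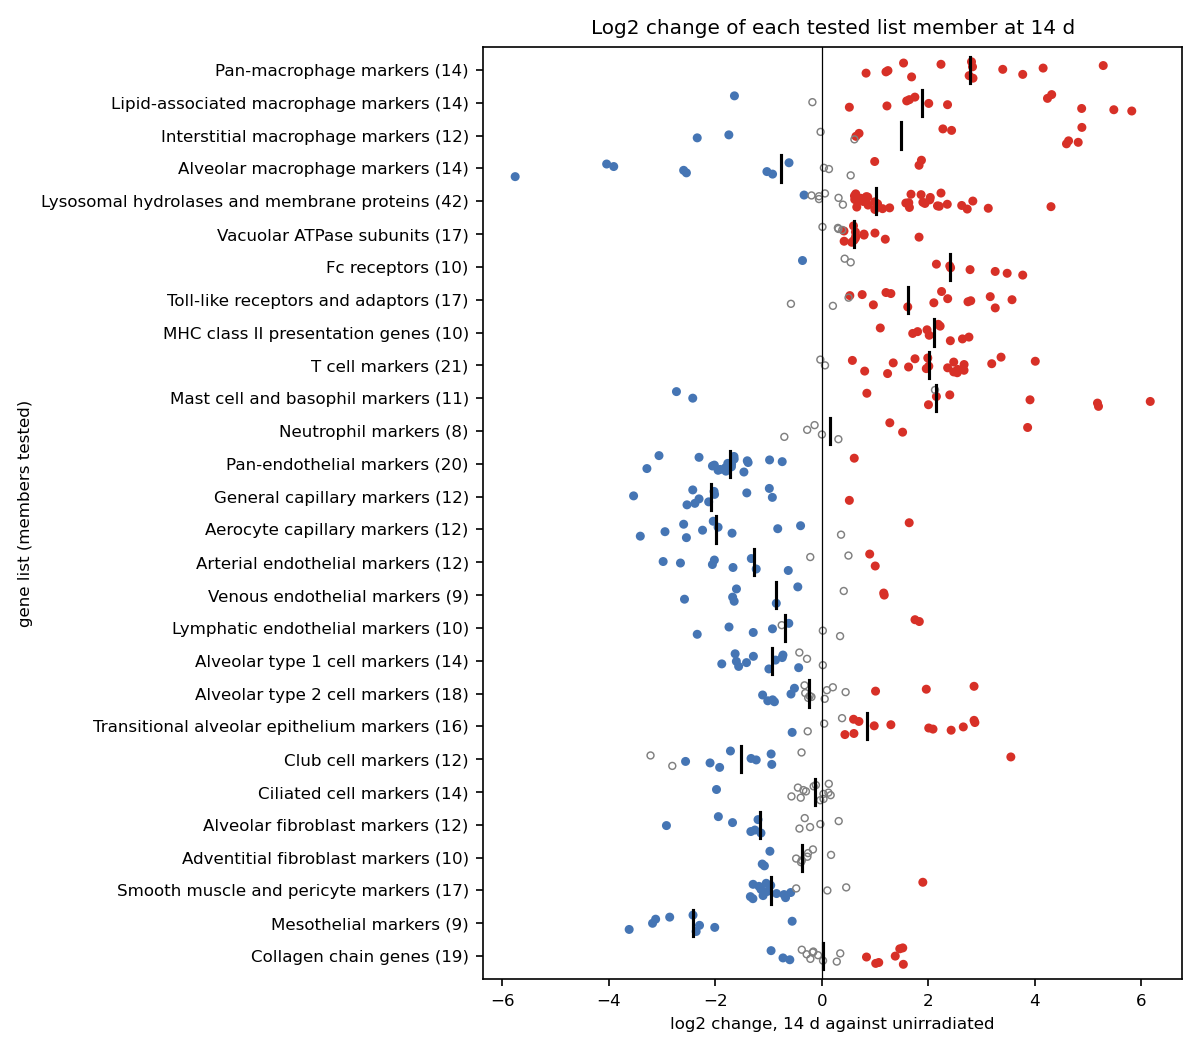
Log2 change at 14 d against unirradiated lung (x axis) for every tested member of 28 gene lists (rows, number tested in brackets). Filled red and blue points passed the test as higher and lower, open grey points did not, and the black bar is the list's median. Macrophage and lysosomal lists lie to the right, endothelial and mesothelial lists to the left, and the alveolar macrophage, mast cell and collagen lists on both sides.

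All 14 pan-macrophage markers rose, with a median log2 change of 2.79, beside 20.0% of all genes. Cd68, a glycoprotein of the endosomes of phagocytes, stood at 63.3, 66.5 and 65.7 CPM (counts scaled to a common library size) in the unirradiated libraries and at 476, 493 and 428 CPM at 14 d. The 3 libraries of each group lay close together and far from the other group, and the log2 change was 2.84 (SE 0.24, adjusted p = 8.8e-07, edgeR). Ms4a7, a membrane protein of monocyte-derived macrophages, rose from 3.09, 2.92 and 2.13 CPM to 112, 74 and 132 CPM, by 5.28 on the log2 scale (SE 0.38). Csf1r, the receptor for the growth factor that macrophages need to survive, rose less, from 90.5, 89 and 80.6 to 331, 264 and 242 CPM (log2 change 1.69, SE 0.22). Its ligand gene Csf1 had mean levels of 28.3 and 30.2 CPM and was not called (log2 change 0.09, adjusted p = 0.61, edgeR). Of 20 growth factor, receptor and transcription factor genes of macrophages, 14 rose and none fell, with a median of 1.04; the transcription factor gene Irf8 rose by 2.97.

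Genes of lipid-associated macrophages, a state named for phagocytes that take up lipid-rich debris, rose as well. Of 14 markers 12 rose and 1 fell, with a median log2 change of 1.88. Gpnmb, a membrane glycoprotein of such cells (chromosome 6, 49036546 to 49070929, plus strand, GRCm38), went from 18.9, 17.9 and 20.6 CPM to 964, 1279 and 996 CPM. Its log2 change of 5.82 (SE 0.35, adjusted p = 1.5e-07, edgeR) was among the highest of all genes whose mean reached 5 CPM. Trem2, a lipid-sensing receptor, went from 2.26, 2.1 and 2.42 to 97.5, 92.5 and 114 CPM (log2 change 5.48, SE 0.34). Spp1, which encodes osteopontin, rose by 4.88 (SE 0.38), with 44.8, 103 and 54 CPM without irradiation and 1613, 2041 and 2283 CPM at 14 d. Mmp12, the macrophage elastase gene, rose by 4.32. Cd36, the fatty acid translocase, was the member that fell, from 1401, 1424 and 1796 to 429, 470 and 582 CPM (log2 change -1.64, SE 0.16); endothelial cells also express it.

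The macrophage gain did not extend to the genes that mark resident alveolar macrophages: 8 of their 14 markers fell and 3 rose, with a median of -0.77. Fabp1, a fatty acid-binding protein gene (chromosome 6, 71199827 to 71205023, plus strand), stood at 17.3, 17.2 and 17.7 CPM without irradiation and at 0.135, 0.302 and 0.501 CPM at 14 d. It fell by 5.76 on the log2 scale (SE 0.37, adjusted p = 1.5e-07, edgeR), the largest fall among genes whose mean reached 5 CPM and whose groups did not overlap. Cidec, a lipid droplet gene, fell by 4.04, Krt79, a keratin gene, by 3.91 and Ear1, an eosinophil-associated ribonuclease gene, by 2.60. Siglecf, a surface lectin also found on eosinophils, fell from 30.7, 27.9 and 28.9 to 16.8, 14.6 and 14.7 CPM (log2 change -0.93). Pparg, the transcription factor that alveolar macrophages depend on, had a log2 change of 0.04 (SE 0.15). The 3 markers that rose were Itgax (CD11c), Atp6v0d2 and Mcemp1, by 1.87, 1.82 and 0.99; dendritic cells express Itgax too, and Atp6v0d2 encodes a subunit of the vacuolar proton pump.

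Interstitial macrophage and monocyte markers were mixed. Of 12 interstitial markers 8 rose and 2 fell, with a median of 1.49. C1qb, a chain of the first complement component, went from 12.8, 14.6 and 12.3 to 401, 286 and 430 CPM (log2 change 4.81, SE 0.27). Lyve1, a hyaluronan receptor of some interstitial macrophages and of lymphatic and lung capillary endothelium, fell by 2.34, and Cd163, the haemoglobin scavenger receptor, fell by 1.75. Of 11 classical monocyte markers 8 rose and 1 fell, or 2 fell without unirradiated replicate 1. Ccr2, the receptor that draws monocytes out of the blood, rose from 13.2, 10.9 and 18.3 to 185, 125 and 222 CPM (log2 change 3.65, SE 0.29). Of 10 patrolling monocyte markers 3 rose, 3 fell and 4 were not called; 2 of the 3 falls were Ace, the angiotensin-converting enzyme gene of lung capillaries, and Nr4a1. Only 1 of these markers was called lower without 14 d replicate 2, 14 d replicate 3 or unirradiated replicate 3.

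**Figure D2:**
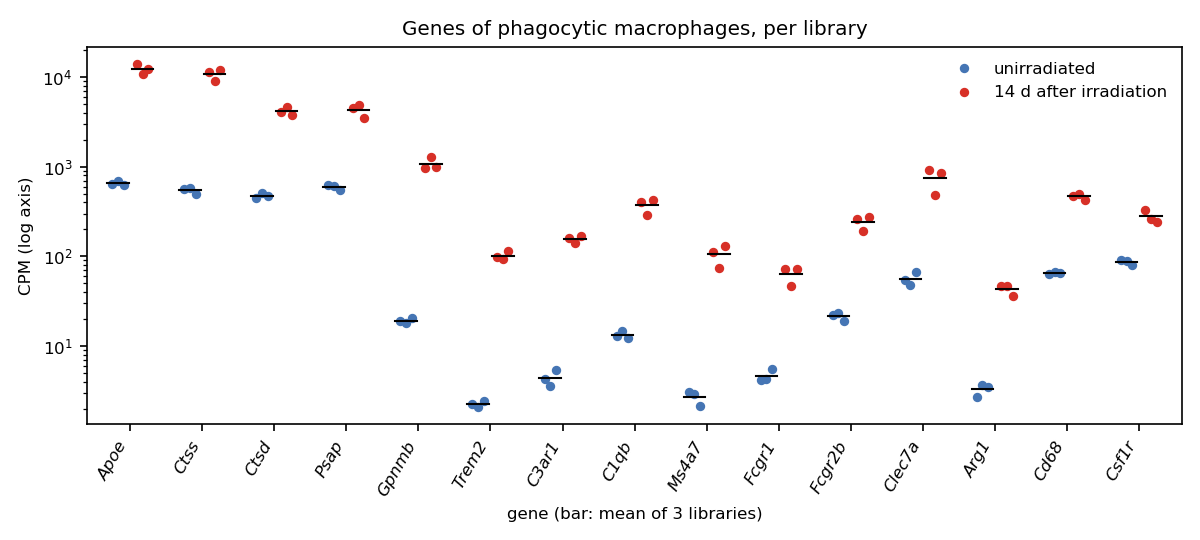
CPM of 15 genes (log axis) in each of the 3 unirradiated (blue) and 3 14 d libraries (red), with bars at the means. In each of these genes all 3 libraries at 14 d lie above all 3 unirradiated ones, from Csf1r with a log2 change of 1.69 to Gpnmb with 5.82. All 15 are genes called higher, and members of the same lists that fell, such as Cd36 and Lyve1, are not shown. The separation therefore does not describe the lists as a whole.

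The lysosome, the compartment in which engulfed material is digested, showed the same direction across its enzymes. Of 42 genes for lysosomal hydrolases and membrane proteins 35 rose and 1 fell, with a median log2 change of 1.02. Ctss, the cathepsin S gene (chromosome 3, 95526786 to 95556403, plus strand), went from 563, 577 and 494 CPM to 11310, 8968 and 11960 CPM, and rose by 4.30 (SE 0.32, adjusted p = 3.4e-07, edgeR). Ctsd, the aspartic protease cathepsin D, went from 444, 508 and 467 to 4065, 4585 and 3723 CPM (log2 change 3.12, SE 0.22). Psap, the precursor of the saposins that help to break down sphingolipids, rose by 2.83, and the cysteine protease gene Ctsb by 2.73. The rise was not shared by all lysosomal enzymes: Smpd1, acid sphingomyelinase, had a log2 change of -0.05 and Manba of 0.31, and neither passed the test. Ids, iduronate sulfatase, was the 1 gene called lower, at -0.33, and it lost that call under 8 of 15 other settings.

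Of 17 subunit genes of the vacuolar ATPase, the pump that acidifies lysosomes, 13 rose and none fell, with a median of 0.60, and 8 rose without unirradiated replicate 3. Atp6v0d2, an isoform found in macrophages and osteoclasts, rose by 1.82 (SE 0.17), from 161, 133 and 128 to 501, 491 and 504 CPM. The general subunit gene Atp6v1a rose by 0.79 (SE 0.16), from 111, 99.3 and 128 to 180, 196 and 210 CPM, and Atp6ap1 had a log2 change of 0.01. The highest change of the list was thus that of Atp6v0d2.

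Many lysosomal genes carry in their promoter a palindromic motif bound by TFEB and its relatives, the core of the CLEAR element. The letters TCACGTGA, which read the same on both strands, were searched from 250 bases before to 50 bases after each start site in RefSeq promoter entries (GRCm38.p6). A gene was counted if any of its entries held them. They occurred in 1.12% of all 27025 genes with an entry and in 1.91% of the 12227 tested genes with one. Among lysosomal genes with an entry they occurred in 4 of 35 (11.4%), and among vacuolar ATPase genes in 3 of 11 (27.3%). No match was found in the 11 lipid-associated, 14 cholesterol efflux and 10 cholesterol synthesis genes with an entry. Stretches of 30 bases around the motif are shown for 3 genes that rose and 1 that did not, 5′ to 3′ on the gene's strand, with the motif in capitals.
Ctsd, chr7:142387908-142387937, minus strand: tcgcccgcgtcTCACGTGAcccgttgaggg
Gla, chrX:134601215-134601244, minus strand: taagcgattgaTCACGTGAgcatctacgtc
Atp6v1a, chr16:44139373-44139402, minus strand: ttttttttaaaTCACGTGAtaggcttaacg
Mcoln1, chr8:3500462-3500491, plus strand: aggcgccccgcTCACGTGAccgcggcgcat
The motif began at -99 from the start site in Ctsd, -228 in Gla, -132 in Atp6v1a and -46 in Mcoln1. Gla, the alpha-galactosidase A gene, rose from 7.61, 7.38 and 7.05 to 38.4, 34.6 and 39.9 CPM (log2 change 2.35, SE 0.22). Mcoln1, a lysosomal calcium channel gene, stood at 26.3, 26.6 and 21.1 CPM without irradiation and 22.7, 29.9 and 24.4 CPM at 14 d, with overlapping groups and a log2 change of 0.06 (SE 0.15). The motif thus stood in promoters of genes with large, small and no called change, and a match is a description of the letters, not of binding. Gla and Mcoln1 lie outside the rule for named genes and were chosen for the motif, with their values known.

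Genes for sterol export and sterol synthesis moved in opposite directions. Of 18 efflux genes and targets of the sterol-sensing liver X receptors 11 rose and 3 fell, with a median of 0.74. Of 16 synthesis and uptake genes 9 fell and 2 rose, with a median of -0.58. Apoe, which carries lipid out of macrophages (chromosome 7, 19696109 to 19699188, minus strand), went from 640, 692 and 627 CPM to 13880, 10710 and 12350 CPM, and rose by 4.24 (SE 0.30, adjusted p = 3.1e-07, edgeR). Abca1, the cholesterol exporter of the cell membrane, rose from 118, 103 and 82.3 to 409, 414 and 284 CPM (log2 change 1.87, SE 0.28), and Soat1, which esterifies cholesterol for storage, by 1.55. Apoc4 had no count in the unirradiated libraries and 21, 24 and 18 counts at 14 d; its fitted change is no bound, and any value above the list's median leaves that median as it is. Pltp, phospholipid transfer protein, fell by 1.11. The other two falls were less stable: Scd2 was not called without 14 d replicate 1, 14 d replicate 3 or unirradiated replicate 1, and Nr1h2, which encodes one of the receptors, was not called with any 1 of the 6 libraries left out. Nr1h3, the gene of the other receptor, had a log2 change of 0.02.

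On the synthesis side Fdps, farnesyl diphosphate synthase, fell from 41.7, 53.5 and 62.2 to 28.8, 25.3 and 26.4 CPM (log2 change -0.97, SE 0.18, adjusted p = 0.00072, edgeR). Insig1, a brake on sterol synthesis that sterol depletion normally induces, fell by 1.27. Mvd went against its list and rose by 0.70; Dhcr7, the other gene called higher, was not called without 14 d replicate 1 or 2, or without unirradiated replicate 1 or 2. At 8 d the synthesis list had a median log2 change of 0.32 against unirradiated lung and at 11 d of 0.28, from comparisons that share the unirradiated libraries. Against 8 d directly, 13 of the 16 genes were lower at 14 d, beside 7.29% of all genes tested, and 8 to 12 with any 1 library left out; 8 were so without 14 d replicate 1.

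**Figure D3:**
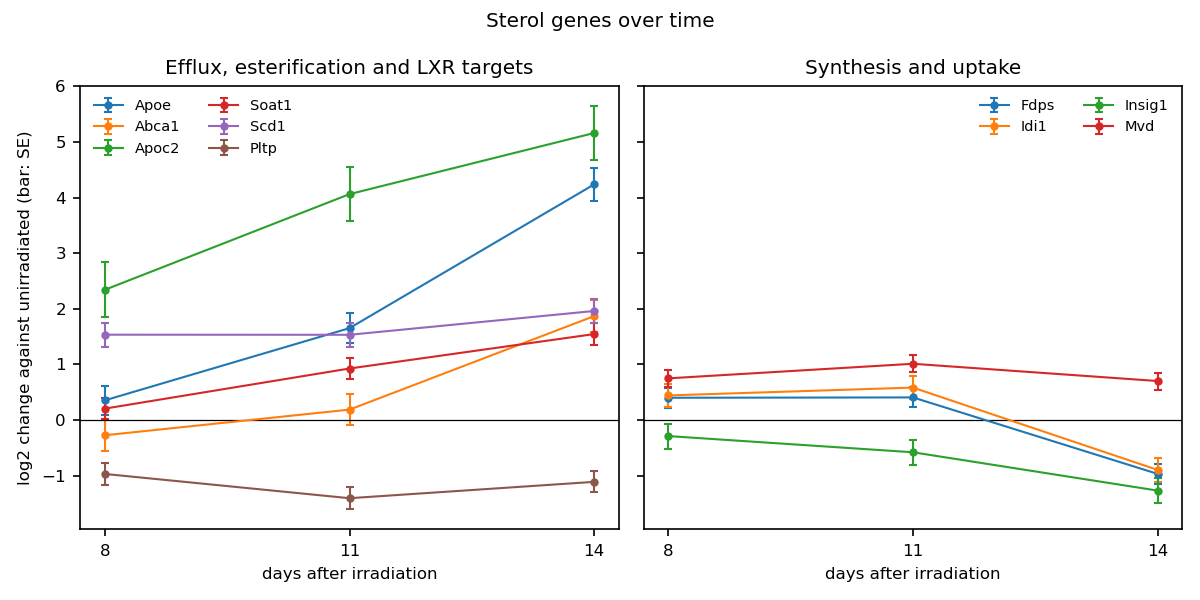
Fitted log2 change against unirradiated lung at 8, 11 and 14 d (x axis) with SE bars, for 6 efflux, esterification and lipid genes (left) and 4 synthesis and uptake genes (right). Apoe reaches 4.24 at 14 d and Pltp stays below 0, while Fdps, Idi1 and Insig1 are all below 0 at 14 d and Mvd is above it.

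Receptors by which phagocytes recognise targets rose with the macrophage markers. Of 22 scavenger and efferocytosis genes 11 rose and 3 fell (median 0.59). Msr1, scavenger receptor A, rose by 5.11 and Clec7a, the beta-glucan receptor, by 3.73. Marco, a scavenger receptor of alveolar and marginal macrophages, was not called: 12.4, 25.1 and 56 CPM without irradiation overlapped 45.5, 42.8 and 47.8 CPM at 14 d. Of 10 Fc receptor genes 7 rose and 1, Fcgrt, fell, a call that was lost without 14 d replicate 1 or 2, or unirradiated replicate 2 or 3. The inhibitory receptor gene Fcgr2b went from 22.5, 23.5 and 18.8 to 259, 192 and 272 CPM (log2 change 3.48), and the high-affinity receptor gene Fcgr1 rose by 3.77. Among 17 Toll-like receptor and adaptor genes 14 rose (median 1.61), led by Tlr9 at 3.57. Of 20 complement genes 8 rose and 4 fell, and the median was 0.01; of the 4, C2 and C7 were called in every setting tried, and only 2 fell without 14 d replicate 1 or unirradiated replicate 3. C3ar1, the receptor for the C3a fragment, rose by 5.14, while C3 itself had a log2 change of -0.10.

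Genes of both classical and alternative macrophage activation were examined. Of 10 oxidase and nitric oxide genes 8 rose (median 2.06), among them Cybb, the catalytic oxidase subunit, by 2.69. Nos2, the inducible nitric oxide synthase, stood at 3.47, 2.62 and 4.41 CPM and 3.91, 5.39 and 3.92 CPM, with overlapping groups. Of 16 alternative activation genes 12 rose and 3 fell (median 1.86). Arg1, arginase 1, rose from 2.71, 3.73 and 3.47 to 47, 46.7 and 36.3 CPM (log2 change 3.71, SE 0.35) and Retnla by 3.55. Chil3, Chil4 and Tgm2 fell, by 1.03, 0.99 and 0.47; Chil3 also marks alveolar macrophages, and Tgm2 was not called without 14 d replicate 2 or 3, or unirradiated replicate 1 or 2. Chemokine genes rose in 20 of 30 cases, and the monocyte attractant Ccl2 went from 0.49, 0.258 and 0.542 to 13.7, 9.32 and 17.3 CPM (log2 change 4.95). Cxcl9, induced by interferon gamma, rose by 5.61. The 3 chemokine genes that fell, Ccl21a, Cxcl12 and Cx3cl1, by 1.74, 1.32 and 1.60, are made by endothelium, stroma or epithelium.

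Other immune markers rose as well, which bears on how far the change is one of macrophages alone. Of 21 T cell markers 19 rose (median 2.01); Cd4 went from 5.84, 6.35 and 8.74 to 62, 33.1 and 38.4 CPM. All 15 regulatory T cell and checkpoint genes tested rose, with Ctla4 up by 5.05 and Pdcd1 by 5.19, and so did 11 of 13 natural killer and cytotoxic markers. All 10 genes of antigen presentation by MHC class II rose (median 2.10), and 23 of 24 interferon-stimulated genes did (median 1.40). Of 14 B cell markers 4 rose, 1 fell and 9 were not called, and 7 rose without unirradiated replicate 3. Cd22 rose by 2.22 and Vpreb3 fell by 1.69, while Cd79a and Ms4a1, which define the lineage, had log2 changes of -0.14 and 0.23 and were not called. The plasma cell gene Jchain was at 7.91, 6.16 and 6.65 CPM and at 82.3, 64.4 and 285 CPM at 14 d, where replicate 3 was far above the others. The neutrophil genes S100a8 and S100a9 had overlapping groups and log2 changes of 0.31 and -0.70, and 3 of 8 neutrophil markers rose. Of 11 mast cell and basophil markers 8 rose, among them Cpa3 by 5.20 and Cma1 by 3.91. Kit and Gata2, on that list but also expressed in endothelium, fell by 2.42 and 2.73. The part of each of these cell types in the shared immune genes was not tested.

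Most endothelial markers were lower at 14 d. Of 20 pan-endothelial markers 19 fell, beside 18.9% of all genes, with a median log2 change of -1.73. Tek, the angiopoietin receptor TIE2 (chromosome 4, 94739289 to 94874976, plus strand), went from 543, 498 and 513 CPM to 45.8, 59.6 and 54 CPM. Its log2 change of -3.29 (SE 0.17, adjusted p = 1.1e-07, edgeR) was the largest fall on that list, with no overlap between groups. Ramp2, part of the adrenomedullin receptor that keeps the barrier tight, fell by 3.06, from 433, 516 and 331 to 40.5, 57.9 and 55.1 CPM. Vwf, the von Willebrand factor gene of larger vessels, fell less, by 1.65. Mmrn2, an endothelial matrix glycoprotein, was the exception and rose from 53.9, 49.6 and 59 to 75.7, 99.5 and 72.5 CPM (log2 change 0.61, adjusted p = 0.0101, edgeR), a call that was lost without 14 d replicate 2.

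By vessel class, 11 of 12 general capillary markers fell (median -2.08) and 10 of 12 aerocyte markers (median -1.99). Hpgd, which breaks down prostaglandins, went from 1149, 1273 and 1028 to 72, 103 and 123 CPM (log2 change -3.54, SE 0.24), and Plvap, the diaphragm protein of fenestrae, fell by 2.38. Ednrb, the endothelin B receptor of aerocytes, went from 90.4, 85.6 and 98.2 to 5.67, 10.4 and 9.6 CPM (log2 change -3.41, SE 0.27). Car4, carbonic anhydrase 4, which is also on the alveolar macrophage list, fell by 2.54. Apln, the aerocyte ligand apelin, had a log2 change of 0.36 and was not called. The 2 members that rose, Lpl by 0.52 and Sirpa by 1.64, are also macrophage genes. Arterial markers fell in 8 of 12 cases (median -1.28), with the Notch ligand gene Dll4 down by 2.98 and Efnb2 by 2.66. Dkk2, a Wnt inhibitor, rose from 2.98, 1.99 and 2.17 to 4.95, 4.6 and 4.76 CPM, and Plac8 rose by 0.90; Plac8 is also a monocyte marker and was not called without 14 d replicate 1 or 3, or unirradiated replicate 1 or 2. The summed arterial level did not follow the median: it was 2032, 2301 and 2257 CPM without irradiation and 1902, 1778 and 3221 CPM at 14 d, with overlapping groups, and Mgp, the matrix Gla protein, gave most of it at 1290, 1532 and 1383 and 1595, 1433 and 2915 CPM. Of 9 venous markers 6 fell, 2 rose and 1, Sele, was not called. The 2 that rose, Vcam1 and Selp, encode adhesion molecules of inflamed vessels, and they rose by 1.17 and 1.16. Of 10 lymphatic markers 5 fell and 2 rose, and Prox1, which defines that lineage, was not called at 0.906 and 1.14 CPM.

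Genes for vascular function followed. Of 24 genes for tone, coagulation and barrier 14 fell and 5 rose (median -0.99). Thrombomodulin (Thbd), which turns thrombin to an anticoagulant role, went from 490, 534 and 332 to 61.6, 91 and 77.5 CPM (log2 change -2.56, SE 0.24). Npr3, the natriuretic peptide clearance receptor, fell by 2.85. Procr, the endothelial protein C receptor, went the other way from 2.19, 2.88 and 2.96 to 13.1, 10.6 and 12 CPM (log2 change 2.15), as did Plau, urokinase, by 2.31. Of 19 VEGF, angiopoietin and Notch genes 14 fell; Vegfa, made in the alveolus chiefly by type 1 cells, went from 1029, 802 and 926 to 266, 365 and 261 CPM (log2 change -1.63, SE 0.19).

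**Figure D4:**
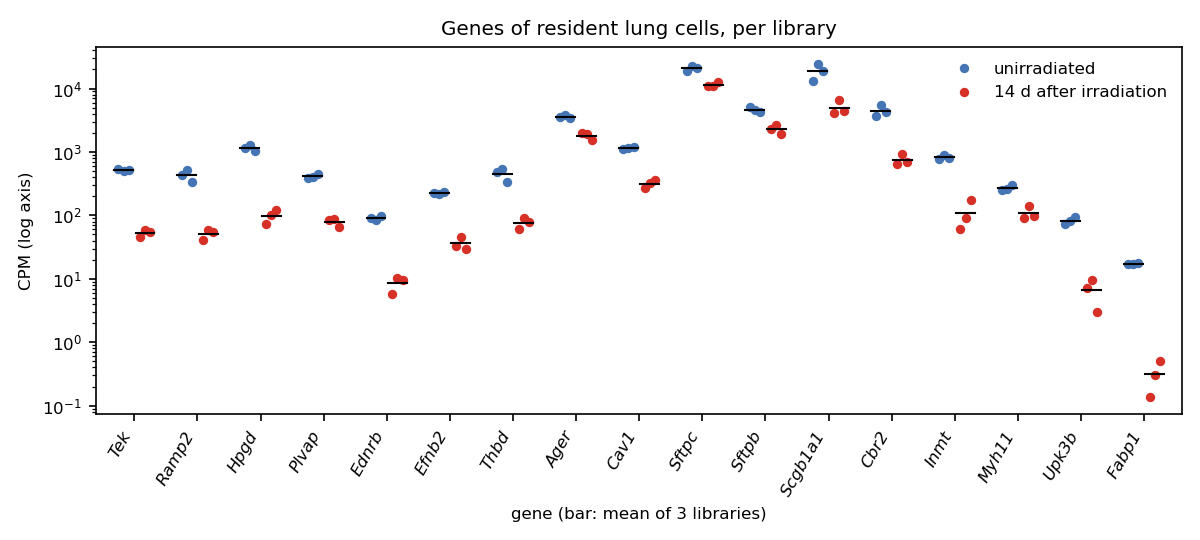
CPM of 17 genes of resident cells (log axis) in each of the 3 unirradiated (blue) and 3 14 d libraries (red), with bars at the means. In each gene all 14 d libraries lie below all unirradiated ones, and on the log2 scale Sftpc fell by 0.89 and Fabp1 fell by 5.76. All 17 are genes called lower, and members of the same lists that did not fall, such as Pdpn and Sftpd, are not shown. The separation therefore does not describe the lists as a whole.

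Epithelial genes fell unequally. Of 14 alveolar type 1 markers 11 fell and none rose (median -0.93). Ager, the advanced glycation receptor of type 1 cells, went from 3504, 3857 and 3397 to 1958, 1914 and 1525 CPM (log2 change -0.99, SE 0.18). Cav1, caveolin 1, which endothelium shares, fell further, by 1.88, and Clic5 by 1.61. Pdpn, podoplanin, stood at 168, 160 and 158 CPM and at 164, 167 and 161 CPM (log2 change 0.02). Of 18 alveolar type 2 markers 6 fell, 3 rose and 9 were not called (median -0.24). Sftpc, surfactant protein C, went from 19000, 23000 and 21330 to 10780, 10860 and 12510 CPM (log2 change -0.89, SE 0.20), and Sftpb fell by 1.02, while Sftpd had a log2 change of 0.05. The 3 that rose were Lcn2, Scd1 and Lyz1, by 2.86, 1.96 and 1.01; lipocalin 2 is an inflammatory protein, Scd1 a lipid desaturase of many cells, and Lyz1 a lysozyme gene next to the near-identical myeloid gene Lyz2, so that counts could be split between the copies.

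Of 16 markers of the transitional state, through which type 2 cells are known to pass on the way to type 1 cells, 12 rose and 1 fell (median 0.84). The tight junction gene Cldn4 rose by 2.43, Sfn (stratifin) by 2.09 and Cdkn1a, the cell cycle inhibitor p21, by 2.66. Krt19, a keratin gene of simple epithelium, fell by 0.56, and Krt7, Hbegf and Plaur were not called. Several members are shared with other lists: Lgals3 with the lipid-associated macrophage markers, Lcn2 with the type 2 markers and Cdkn1a with the p53 targets. The part of epithelial cells in these rises was not tested. Among 12 club cell markers 8 fell (median -1.52). Scgb1a1, the club cell secretory protein, was at 13300, 24670 and 18620 CPM and fell to 4107, 6492 and 4354 CPM (log2 change -1.92, SE 0.28), and the carbonyl reductase gene Cbr2 fell by 2.56. Retnla, the club cell marker that rose, is also a macrophage gene. Scgb3a1 shows why replicate 3 of the unirradiated group matters: it was at 3.69, 10.7 and 220 CPM without irradiation, and its log2 change of -2.81 was not called. Fewer ciliated than club cell markers were called, with 1 of 14 lower (Tppp3, log2 change -1.99) and a median of -0.13. Dnah5, a motor of the cilium, had a log2 change of 0.17. The summed level of the ciliated markers was nonetheless lower at 14 d, without overlap. It was 855.5, 1053 and 1055 CPM without irradiation and 704.8, 813.2 and 508 CPM at 14 d. Without unirradiated replicate 1, 5 ciliated markers were called lower.

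Most alveolar fibroblast, smooth muscle and mesothelial markers were lower too. Of 12 alveolar fibroblast markers 7 fell (median -1.17), with Inmt, an amine methyltransferase, from 771, 903 and 814 to 60.9, 92.3 and 176 CPM (log2 change -2.92, SE 0.37). Pdgfra and Fgf10, a receptor and a growth factor of those cells, had log2 changes of -0.22 and -0.03 and were not called. Adventitial fibroblast markers changed less: of 10, 3 fell and 7 were not called (median -0.38), beside 18.9% of all genes that fell. Of 17 smooth muscle and pericyte markers 13 fell (median -0.96), among them smooth muscle myosin (Myh11) by 1.29. All 9 mesothelial markers tested fell, with a median of -2.42. Upk3b, uroplakin 3B of the pleural surface, went from 72.7, 80.8 and 92.7 to 7.24, 9.73 and 3 CPM (log2 change -3.62, SE 0.47). The labels read here do not give the amount of pleura in each piece of tissue, and its part in this difference cannot be told apart from irradiation. The cardiac gene Actc1 fell by 2.37, and was the 1 of 9 cardiac markers that was called. The fit with the replicate number as a block called 5. Tissue next to the lung or the sleeve of its veins is a possible source of Actc1, which was not tested.

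Matrix genes did not move as one. Of 19 collagen chain genes 7 rose, 3 fell and 9 were not called, and the median was 0.02. Col1a1, the main chain of fibrillar collagen, went from 97, 82.4 and 106 to 297, 323 and 205 CPM (log2 change 1.53, SE 0.24) and Col3a1 rose by 1.07. Col4a3, Col4a5 and Col13a1 fell, by 0.60, 0.73 and 0.95; the call for Col4a3, a basement membrane chain, was lost in 6 of 15 settings, among them the fits without 14 d replicate 1 or 3 and unirradiated replicate 1 or 3. Fibronectin (Fn1) rose by 2.72, from 339, 265 and 204 to 1804, 2282 and 1223 CPM, and tenascin C (Tnc) by 3.28. Among activated myofibroblast markers 8 of 14 rose and 3 fell, and those 3 were Acta2, Tagln and Postn. The largest rise, by 4.88, was that of Spp1, which is also on the lipid-associated macrophage list. Cthrc1, Loxl2 and Runx1 were not called. Acta2, alpha smooth muscle actin, was at 119, 198 and 148 CPM and 99.9, 99.6 and 90.6 CPM (log2 change -0.68, adjusted p = 0.0121, edgeR), and was not called without unirradiated replicate 2. Among 24 niche signals 9 fell and 5 rose; Bmp6 fell by 2.93 and Fgf1 by 1.84, while Grem1, a BMP inhibitor, rose from 0.0754, 0.111 and 0.108 to 4.63, 2.19 and 3.46 CPM.

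Targets of p53, the transcription factor activated by DNA damage, were mostly higher at 14 d. Of 30 p53 target genes 18 rose and 4 fell (median 0.81). Cdkn1a went from 24.7, 29.7 and 19.9 to 156, 170 and 143 CPM (log2 change 2.66, SE 0.18), and Mdm2, which limits p53, rose by 1.07. Fas, Perp, Xpc and Rrm2b fell, by 0.93, 0.99, 0.51 and 0.45. Against 8 d, 12 of the 30 genes were lower at 14 d and 1 was higher, and 7 to 11 were lower with any 1 library left out, the lowest counts being 7 without 14 d replicate 1 and 8 without 8 d replicate 3. The 1 higher gene was not called without 8 d replicate 1 or 3 or 14 d replicate 3. Cdkn1a was lower than at 8 d by 0.88 (adjusted p = 0.00268, edgeR), with group means of 286.6 CPM at 8 d and 156.2 CPM at 14 d. All 22 mitosis genes were higher at 14 d than without irradiation (median 1.34), with Mki67 up by 1.90.

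Against 8 d, 1335 genes (8.10% of those tested) were higher at 14 d and 1201 (7.29%) lower by edgeR. The total of 2536 (15.4%) was 1392 without 14 d replicate 1 and 1600 without 8 d replicate 3. Scaled by library size alone the same comparison gave 43.4% rises in place of 52.6%. All but 1 of the 14 pan-macrophage markers were higher than at 8 d (13, also in each fit with 1 library left out), as were 32 of 42 lysosomal genes (29 to 33). Gpnmb had means of 69.9 CPM at 8 d and 1080 CPM at 14 d, a log2 difference of 3.95. Of 20 pan-endothelial markers 18 were lower than at 8 d (15 to 19), and all 9 mesothelial markers were (6 to 8). Of 21 T cell markers 3 were higher and none lower than at 8 d, and of 24 interferon-stimulated genes 1 was lower and none higher. The T cell count was 1 without 8 d replicate 3 or 14 d replicate 1 and 6 without 14 d replicate 2, and the interferon count was 0 without 8 d replicate 1 or 14 d replicate 1 or 2 and 2 without 14 d replicate 3.

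Against 11 d few genes could be named firmly. By edgeR 134 genes (0.813%) were higher and 162 (0.983%) lower, 296 in all (1.80%). That total was 681 without 11 d replicate 1, 24 without 11 d replicate 2, 52 without 11 d replicate 3, 13 without 14 d replicate 1, 102 without 14 d replicate 2 and 268 without 14 d replicate 3. Genes called in the fit of all libraries and in each of those 6 fits with 1 left out included Apoe, Car4, Cd22, Clec4e, Ear2, Fdps, Hcar2 and Irg1. Apoe had means of 2054 CPM at 11 d and 12310 CPM at 14 d, a log2 difference of 2.58 (SD at 11 d 1009 CPM, n = 3). Car4, on both the aerocyte and the alveolar macrophage list, was lower by 1.94, from 259.7 to 67.56 CPM, and Fdps lower by 1.37. Irg1, which makes the anti-inflammatory metabolite itaconate in activated macrophages, was lower by 3.09 and Clec4e, the receptor Mincle, by 2.58. Both stayed above unirradiated lung, by 5.79 and 2.46. The size of the Irg1 change against unirradiated lung is uncertain, since it ran from 5.24 to 9.69 over the settings tried. Ear2, which has near-identical copies in Ear3 and Ear12 so that its counts are uncertain, was higher than at 11 d by 1.66 and did not differ in the test from unirradiated lung (log2 change 0.13).

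**Figure D5:**
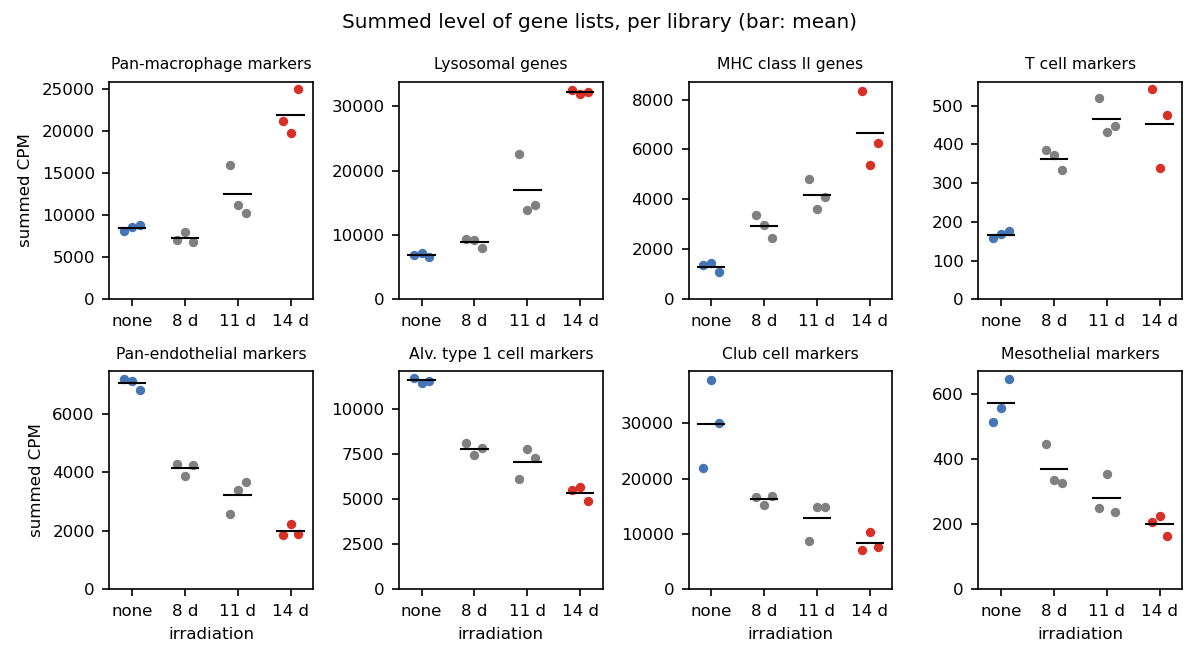
Summed CPM of 8 gene lists in each of the 12 libraries (points) with group means (bars), against irradiation state, each panel starting at 0. The macrophage, lysosomal and MHC class II sums of all 14 d libraries lie above all others, and the endothelial, type 1 and mesothelial sums below all others; club cell and T cell sums at 11 and 14 d overlap.

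Among genes whose mean reached 5 CPM and whose groups did not overlap, the highest change belonged to Saa3, which is on none of the lists: this acute-phase protein gene went from 0.339, 0.258 and 1.12 to 34.9, 41 and 62.4 CPM (log2 change 6.31, SE 0.57). Under the same limits Stra6l, a retinol transporter homologue, rose by 5.57. Among the largest falls beside Fabp1 were Ankrd63 at -5.46 and the kidney-type cadherin gene Cdh16 at -4.21. The capillary gene Tmem100 fell from 319, 405 and 345 to 21, 29.4 and 33.4 CPM (log2 change -3.67) and the GLP-1 receptor gene Glp1r had a log2 change of -3.72. Fmo1, a flavin monooxygenase that handles drugs, fell by 3.47 from 518, 601 and 505 CPM.

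Genes that follow the time of day or the handling of tissue were listed beside these results, because they moved too. Of 14 clock genes 10 were lower and 2, Arntl and Clock, higher at 14 d (median -1.13), and Clock was called in the fit without 14 d replicate 2 but in no other fit with 1 library left out. Nr1d1, a repressor of the clock, was at 63, 57.7 and 143 CPM and 25.1, 27.1 and 15.9 CPM, and Arntl, its target, rose by 1.76. Of 14 immediate early genes 4 fell and 2 rose; 7 fell without unirradiated replicate 2, and 4 rose without unirradiated replicate 3. Egr1 was at 12.6, 11.4 and 100 CPM without irradiation, highest in replicate 3. All 9 red cell genes fell, with Hba-a1 from 2449, 4187 and 5072 to 1417, 711 and 1073 CPM. With Rn45s and the haemoglobin genes taken out of library sizes and tests, 6398 genes were called in place of 6408. The part of sampling hour in the other differences was not tested.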

How the data were processed

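Each of the 12 libraries came as a table of raw counts, deposited by the authors, with 23282 lines named by gene symbol. The submitters' processing notes name TopHat and the mm10 build. No source read here names the counting program, annotation or strand setting, and overlapping or antisense genes may share counts. Trizol extraction and a directional library kit are given per the labels' protocols. Lines with the same symbol were summed to 23238 symbols, and 22197 were found in GENCODE M21, from which coordinates were taken.

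One model of all 12 libraries was fitted with edgeR 4.0.16 in R 4.3.3 (quasi-likelihood F test, TMM scaling, default expression filter), which kept 16484 genes. Calls needed an adjusted p (Benjamini-Hochberg, over all of them) under 0.05. The SE was taken from F, as the absolute log2 change over its square root, and CPM use the scaled library sizes. The test was checked on simulated counts in which every gene had the same spread and few genes changed. That check does not cover the many changes or the single divergent libraries of these data. The members, the 70 gene lists and the tests were chosen with earlier results of these data known. Named genes are the 15 highest and lowest changes where the mean reached 5 CPM and the groups did not overlap, list members with the largest changes, exceptions and the most abundant uncalled members. Comparisons with 8 d and 11 d give 6 in each direction. Alternatives were other scalings and filters, a replicate block, DESeq2 1.42.0, limma-voom (limma 3.58.1), each library left out, and fits restricted to the groups compared. Some genes are not reported here.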

Additional observations from a re-analysis of the deposited data

Results flagged for a closer look

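Among the 518 named genes, 3 were called in one direction at 14 d and in the other at an earlier time. For each of the 3 the difference between the times passed the test (edgeR, adjusted p over all genes). Genes outside the named ones were not searched for this. Idi1, an isomerase of sterol synthesis, had a log2 change against unirradiated lung of 0.584 at 11 d and -0.896 at 14 d, a difference of -1.48 (adjusted p = 0.0065), which was lost without 14 d replicate 1. Nr4a1, an immediate early gene of patrolling monocytes, had 1.477 at 8 d and -1.456 at 14 d, a difference of -2.933 (adjusted p = 0.00132). Its unirradiated libraries were at 9.08, 8.78 and 40.8 CPM, and the call against them was lost without unirradiated replicate 3, without any 1 of the 14 d replicates and with limma-voom. Serpinb10, a serpin of blood-forming cells, had 1.375 at 8 d and -1.085 at 14 d, a difference of -2.46 (adjusted p = 0.0003); its fall at 14 d was not called without 14 d replicate 1 or unirradiated replicate 3.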

How the results depend on the processing

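The count of genes called at 14 d against unirradiated lung, 6408, lay between 6288 (replicate block) and 6788 (DESeq2) under the other settings, and between 5184 and 6060 with 1 library left out. Rises were 2739 to 3130 and falls 2445 to 2930 in those fits. Against 8 d the count of 2536 lay between 1392 and 2548 with 1 library left out. Against 11 d DESeq2 called 827 genes in place of 296, and fits with 1 library left out 13 to 681; the cause was not tested. Scaling by library size alone gave 293 calls against 11 d with 54.9% rises in place of 45.3%. The deviations of same-numbered libraries from their group means had correlations with 14 d of 0.039, -0.04 and 0.066 for the unirradiated group, 0.038, 0.185 and 0.032 for 11 d and 0.287, -0.353 and -0.08 for 8 d. In none of these were all 3 over 0.1, and the libraries share only a number. The replicate block gave 6288, 425 and 2476 calls against unirradiated lung, 11 d and 8 d. No named gene reversed its direction at 14 d in a setting where it was called, and 78 of 518 changed their call in at least 1 setting. At these depths genes under about 1 CPM rest on few counts.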
